A study of Mus musculus with 6 samples.

Results

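Transcripts of microglia and macrophages were followed through 6 RNA libraries of sorted mouse brain endothelial cells. The set was 39 genes chosen by symbol, of 24421 symbols in each file, and all 39 were found. They were grouped by function into 8 roles. Microglia are the resident macrophages of the brain, and they keep their identity through the lineage factor PU.1 and the receptor for colony stimulating factor 1. They sense their surroundings through receptors that signal over the adaptors TYROBP and FCER1G, and they make the C1q chains that start the classical complement pathway. In glioma they are joined by macrophages derived from blood monocytes.

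The normal group held 3 libraries of endothelial cells from the normal brain of C57BL/6 mice. The glioma group held 3 libraries from gliomas that grew for 3 weeks after GL26l glioma cells were injected into the brain of congenic B6 mice. All 6 libraries came from cells labelled as sorted endothelium, and the sort gate is not given in the sources used here. The RNA sets are called independent, but the labels do not tie each to an animal of its own, and p-values then measure only the spread between these samples, which may be technical. Each library was made from total RNA with a kit that reads the 3′ end of polyadenylated transcripts, so levels of different genes can be compared without a correction for length. Levels are given on the deposited log2(x + 1) scale, or in ppm, parts per 1000000 of a library's summed back-transformed values. Runs of 3 values follow the replicate numbers 1, 2 and 3.

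All 14 endothelial markers were above 0 in every library, summing to 26025, 32669 and 32656 ppm in normal and 13781, 23813 and 16379 ppm in glioma endothelium. Genes above 0 numbered 7446 to 13108 per library, and sequencing depth is unknown. The lowest value above 0 was 7.43, 2.84 and 0.22 in normal and 0.42, 3.82 and 5.22 in glioma endothelium. A gene listed at 0 in normal replicate 1 could therefore have gone unseen at a level that the other libraries record. Granulocyte markers summed to 582 ppm in glioma replicate 1 and at most 10.2 elsewhere, fibroblast markers to 216 there and at most 41.3 elsewhere, and erythroid markers to 24379 there and at most 5419 elsewhere. T and NK cell markers summed to at most 23.9 ppm and B cell markers to at most 0.362. Platelet markers were at 0 in glioma replicate 3 and at 29.8 to 230 ppm in the other libraries, and dissociation stress genes were highest in glioma replicate 3 (7079 ppm against 3481 to 4955). Date-like numbers in the column headers are shared only within a group, so whatever they mark and the group cannot be told apart.

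Most of the 39 transcripts were concentrated in 1 library, glioma replicate 3. Genes above 0 included 6, 12 and 15 of the 39 in normal endothelium and 31, 12 and 33 in glioma endothelium. Because the libraries differ in their lowest value, the members were also counted at or above 7.43, the lowest level that every library could record. About 30% of all genes reached that level in each library (29.93% to 30.49%). The values were read as quantile-normalized, which makes this share nearly equal between libraries by construction. Of the 39 members, 6, 2 and 2 reached it in normal endothelium and 8, 5 and 31 in glioma endothelium. Of the 37 members above 0 anywhere, 28 (75.7%) had their highest value in glioma replicate 3, where 20.4% of all such genes had theirs.

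**Figure D1:**
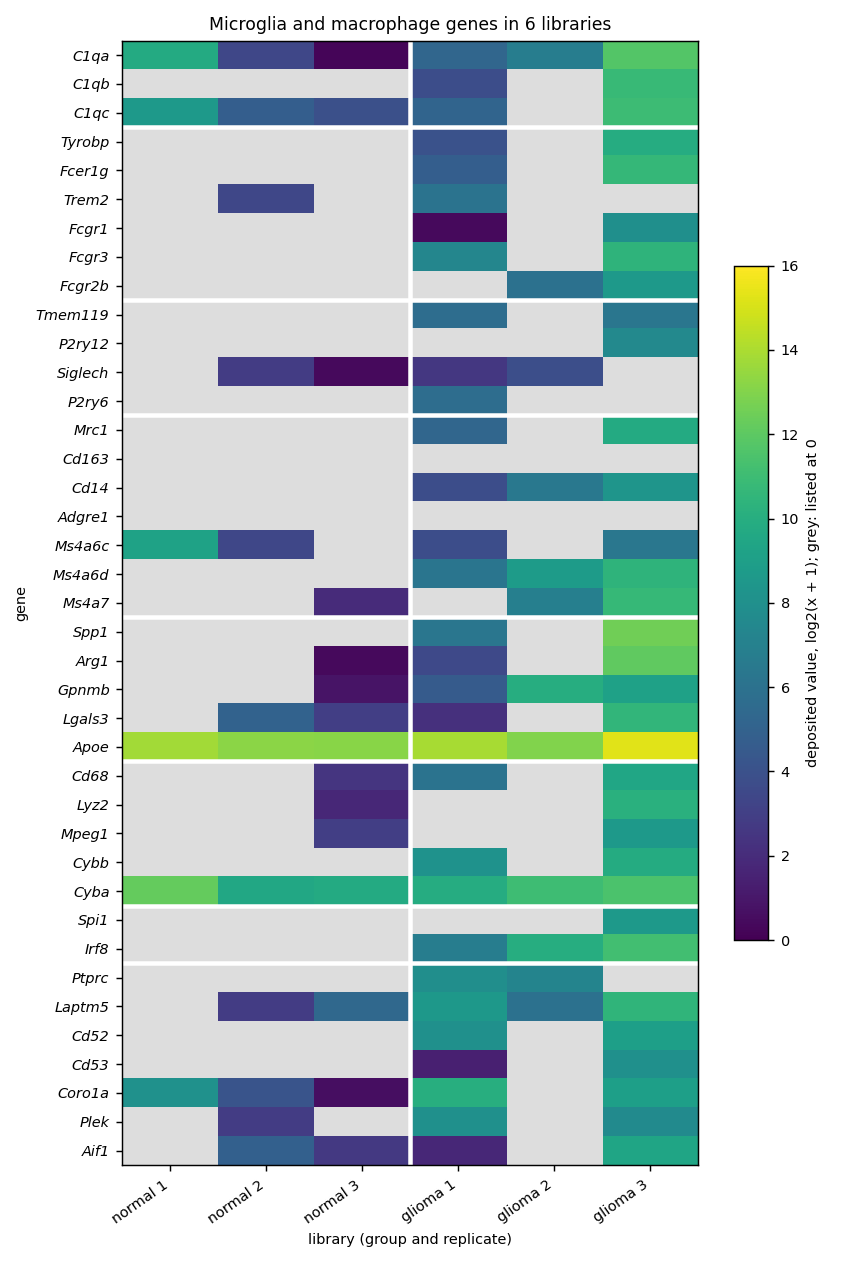
Deposited log2(x + 1) values of the 39 genes (rows, ordered by role with white lines between roles) in the 3 normal and 3 glioma libraries (columns). Grey cells are genes listed at 0, and glioma replicate 3 has 33 genes above 0, most of them brighter than in any other library.

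Summed over the 39 genes, the level was 1251, 616 and 589 ppm in normal endothelium and 1147, 777 and 4790 in glioma endothelium. Apoe and Cyba made up 77.2% to 99.1% of that sum in the other 5 libraries and 53.3% in glioma replicate 3. Both genes are also used by cells other than myeloid cells, so the sum was repeated without them. The other 37 genes reached 128, 8.89 and 5.06 ppm in normal endothelium and 196, 177 and 2239 in glioma endothelium. Glioma libraries thus lay above normal libraries for this sum, with normal replicate 1 nearer to glioma replicates 1 and 2 than to the other normal libraries. Within this sum, the 7 genes of the leukocyte surface and cytoskeleton role gave 16.1, 3.39 and 2.78 ppm in normal endothelium. In glioma endothelium they gave 127, 12.2 and 212 ppm. The role includes Aif1, the microglial protein IBA1, at 40.04 ppm in glioma replicate 3. Without those genes glioma replicate 1 would lie below normal replicate 1. In bulk RNA, fewer cells of a type and less RNA per cell cannot be told apart.

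**Figure D2:**
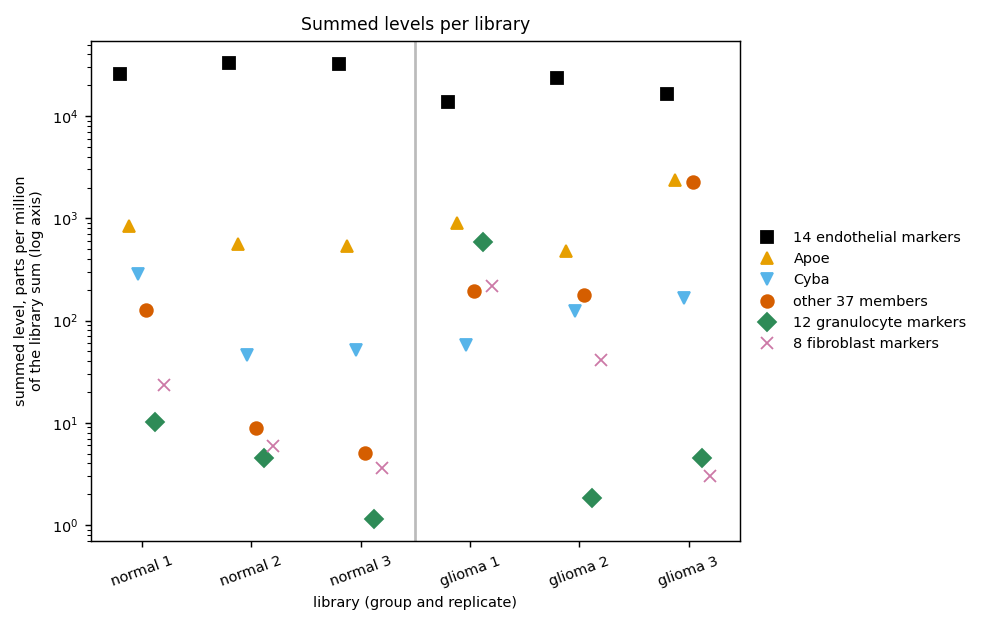
Summed level per library in ppm of the library sum (log axis) for the endothelial markers, Apoe, Cyba, the other 37 members, granulocyte markers and fibroblast markers. Endothelial markers lie at 13781 ppm or more in every library, the other 37 members reach 2239 in glioma replicate 3, and granulocyte markers reach 582 in glioma replicate 1.

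No member passed the test over all genes. The 3 glioma libraries were compared with the 3 normal libraries by limma, with Benjamini-Hochberg adjustment over 11862 genes, of which 0 (0%) reached an adjusted p of 0.05, while 509 had an unadjusted p under 0.05. Without a mean trend in the variance limma called 15 genes (0.126%), none of them a member. Testing required a back-transformed level of 1 or more in 3 or more libraries, which 17 of the 39 members met. Of these 17, 4 (Irf8, Ms4a6d, Gpnmb and Cd14) met it through the 3 glioma libraries alone, and 0 through the normal libraries alone. Those 4 had to be higher in glioma to be tested, so counts and medians over the 17 lean toward glioma by construction and nothing is read from them. The other 22 members are given as values alone. An unadjusted p under 0.05 with a higher level in glioma was reached by these same 4 genes and by none of the other 13 tested members, where the share over all genes tested was 2.35%. With a lower level it was reached by 0 members, and by 1.94% of all genes tested. The median difference, glioma minus normal, was 3.43 over the 17 members and 0.05 over all genes tested. With every value raised to 7.43, it was 0.73 over the 16 members that still varied and -0.01 over all genes.

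The transcription factors among the members were recorded only in glioma libraries. Irf8 encodes a factor that drives microglial and monocyte development (GRCm38 chromosome 8, 120736358 to 120756694). It was listed at 0 in all of normal endothelium and at 6.75, 9.97 and 11.14 in glioma endothelium, so the groups did not overlap. The limma difference was 9.28 (SE 2.36, unadjusted p = 0.00368, adjusted p = 0.875), higher in 3 of 3 glioma libraries, and 2.08 with every value raised to 7.43. Irf8 met the filter only through its 3 glioma values. The lack of overlap and the direction were thus fixed by the filter, and nothing is read from the unadjusted p. Its span overlaps the annotated gene Gm20388 on the same strand, which also spans Cyba on the opposite strand. Spi1, which encodes PU.1 (chromosome 2, 91082390 to 91115756), was at 8.57 in glioma replicate 3 and at 0 in every other library.

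The other 4 members without overlap between the groups were Ms4a6d, Cd14, Gpnmb and Laptm5. Of these and Irf8, Laptm5 alone had normal values that counted toward the filter, and the other 4 were tested only because they were above 0 in glioma. Laptm5 was thus 1 of the other 13 tested members. Over all genes tested, 6.91% lay wholly higher and 6.37% wholly lower in glioma, the latter with 0 members. Ms4a6d, a membrane protein of macrophages, was at 0 in normal endothelium and at 6.20, 8.76 and 10.42 in glioma endothelium. Cd14, the co-receptor for lipopolysaccharide, was at 0 in normal endothelium and at 3.81, 6.42 and 8.33. Both were lowest in glioma replicate 1 and highest in glioma replicate 3. Gpnmb, a lysosomal glycoprotein of lipid-laden macrophages, was at 0, 0 and 0.87 in normal endothelium and at 4.60, 9.94 and 9.16 in glioma endothelium. Laptm5, a lysosomal membrane protein of leukocytes, was at 0, 2.84 and 5.41 in normal endothelium and at 8.52, 5.97 and 10.47 in glioma. In all 5 genes at least 1 glioma value lay below 7.43, the lowest value that normal replicate 1 could record. With every value raised to 7.43, 0 of the 17 were wholly higher, against 4.14% of all genes. Without glioma replicate 3 the same 5 were wholly higher (background 12.4%), and without glioma replicate 2 there were 9 (background 11.5%). No other library was left out for this count. For the 4 genes that met the filter through glioma alone this outcome was fixed in advance, so nothing is read from these counts.

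**Figure D3:**
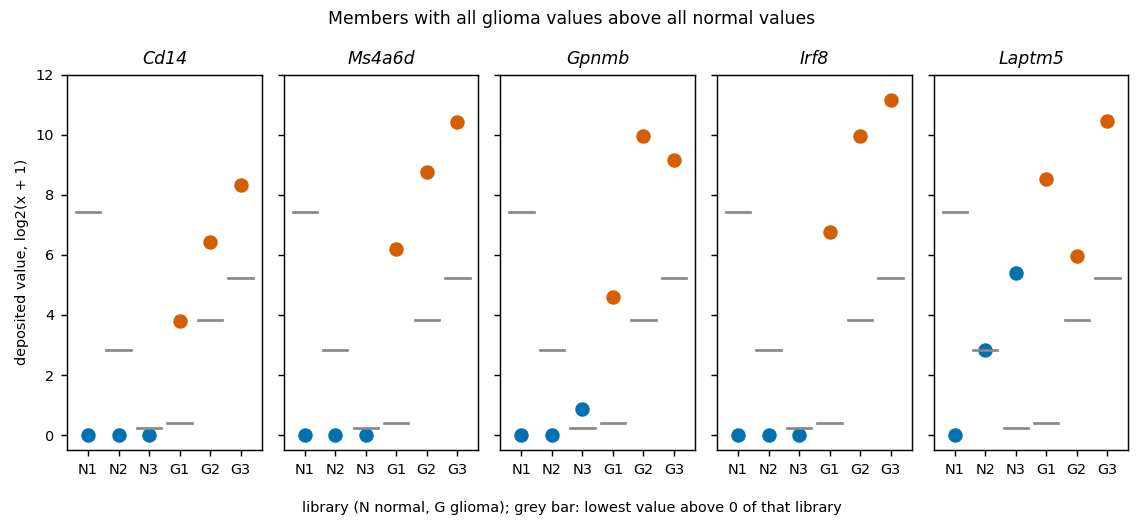
Deposited log2(x + 1) values of the 5 genes whose 3 glioma values (orange, G1 to G3) all exceed their 3 normal values (blue, N1 to N3). Grey bars mark the lowest value above 0 of each library, and the lowest glioma point of each gene lies below the bar of normal replicate 1 at 7.43.

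Of the C1q chains, C1qa and C1qc were recorded in both groups and C1qb in glioma libraries only. C1qa, C1qb and C1qc encode the 3 chains of the C1q molecule and lie next to each other on chromosome 4 (136895917 to 136898803, 136880129 to 136886187 and 136889804 to 136893065). C1qa was at 9.79, 3.42 and 0.22 in normal endothelium and at 5.25, 6.78 and 11.69 in glioma endothelium. C1qc was at 8.65, 4.79 and 3.89 in normal and at 5.13, 0 and 10.98 in glioma libraries. For both genes normal replicate 1 was the second highest of the 6 libraries, and the groups overlapped. C1qb was at 0 in normal endothelium and at 3.81, 0 and 10.79 in glioma. The limma difference was 3.43 for C1qa (SE 2.95, adjusted p = 0.875) and -0.40 for C1qc (SE 3.14, adjusted p = 0.988). Without normal replicate 1 they were 6.09 and 1.03, and without glioma replicate 3 they were 1.54 and -3.21. In normal replicate 1 the C1q chains summed to 76.6 ppm while Tyrobp, Fcer1g, Trem2 and the 3 IgG receptor genes were all at 0, and in glioma replicate 3 the sums were 418 and 268. The lowest value above 0 in normal replicate 1 was 7.43, or 10.2 ppm, so lower levels of these genes could have gone unseen there.

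Promoters are shown for 5 of the 10 members whose window holds a short sequence that PU.1 and related ETS factors can recognise. C1qb, C1qc, Fcgr1 and Mrc1 had their highest value in glioma replicate 3, and Ptprc, which holds 2 copies, was at 0 there. The windows run from 250 bases before to 50 bases after the annotated start and come from RefSeq on GRCm38.p6, for which 29 of the 39 members had an entry. Capitals mark AGGAAGT or its reverse complement, searched on both strands.
C1qb, chr4:136886151-136886450, minus strand: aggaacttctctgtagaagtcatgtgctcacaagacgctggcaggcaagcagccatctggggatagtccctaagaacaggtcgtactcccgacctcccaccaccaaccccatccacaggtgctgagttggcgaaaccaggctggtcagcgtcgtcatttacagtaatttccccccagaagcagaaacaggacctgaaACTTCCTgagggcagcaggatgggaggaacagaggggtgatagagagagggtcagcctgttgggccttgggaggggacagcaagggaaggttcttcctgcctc
C1qc, chr4:136892865-136893164, minus strand: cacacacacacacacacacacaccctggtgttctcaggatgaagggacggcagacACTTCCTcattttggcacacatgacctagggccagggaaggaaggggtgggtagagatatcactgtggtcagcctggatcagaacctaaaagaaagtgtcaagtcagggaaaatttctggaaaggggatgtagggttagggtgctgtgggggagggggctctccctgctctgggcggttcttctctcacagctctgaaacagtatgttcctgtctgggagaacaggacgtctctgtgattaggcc
Fcgr1, chr3:96293920-96294219, minus strand: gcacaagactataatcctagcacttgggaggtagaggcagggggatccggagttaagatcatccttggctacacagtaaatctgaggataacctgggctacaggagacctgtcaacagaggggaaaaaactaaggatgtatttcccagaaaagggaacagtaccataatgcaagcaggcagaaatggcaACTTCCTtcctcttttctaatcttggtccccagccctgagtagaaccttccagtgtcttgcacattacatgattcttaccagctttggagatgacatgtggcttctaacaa
Mrc1, chr2:14229164-14229463, plus strand: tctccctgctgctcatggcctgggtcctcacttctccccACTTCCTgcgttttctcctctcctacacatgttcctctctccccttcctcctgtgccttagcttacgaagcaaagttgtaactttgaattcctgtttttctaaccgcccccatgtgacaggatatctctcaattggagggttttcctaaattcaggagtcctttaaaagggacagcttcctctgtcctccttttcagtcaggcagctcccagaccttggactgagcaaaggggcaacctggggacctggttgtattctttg
Ptprc, chr1:138175256-138175555, minus strand: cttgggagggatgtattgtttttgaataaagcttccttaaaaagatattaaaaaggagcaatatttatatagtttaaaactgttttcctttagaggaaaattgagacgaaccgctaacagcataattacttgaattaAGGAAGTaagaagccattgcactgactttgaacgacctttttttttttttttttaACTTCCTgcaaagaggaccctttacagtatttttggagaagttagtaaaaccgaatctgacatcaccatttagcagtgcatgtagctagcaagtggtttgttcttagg
AGGAAGT occurred in 11 of 37 member windows (29.7%) and in 9.35% of 32851 windows in the whole table. The other 5 members that hold it were Cd53, Lyz2, Ms4a6c, P2ry12 and Spp1. Of the 10, 8 were highest in glioma replicate 3, as were 20 of all 29 members with a window, while Ptprc was highest in glioma replicate 1 and Ms4a6c in normal replicate 1. The motif was chosen for display after the counts of 5 motifs were seen. The others, which overlap it in their letters, were GAGGAA (19 of 37 windows and 28.3% of all), GAGGAAG (9 of 37 and 13.6%), GGAA (37 of 37 and 96.0%) and an ETS-IRF composite motif (3 of 37 and 2.72%). Some genes have several windows that overlap, and a match describes the letters and not a bound site.

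Adaptors that carry an immunoreceptor activation motif, receptors that use them and the inhibitory receptor Fcgr2b were listed at 0 in the normal libraries, except Trem2 in 1 of them. Tyrobp, the adaptor of TREM2 (chromosome 7, 30413760 to 30417585), was at 0 in normal endothelium and at 4.01, 0 and 9.89 in glioma endothelium. Fcer1g, the shared gamma chain of Fc receptors, followed the same order, at 0 in normal endothelium and at 4.81, 0 and 10.68 in glioma. Fcgr3, an activating receptor for IgG, was at 7.37, 0 and 10.39 in glioma and at 0 in normal libraries. Fcgr1, the high-affinity IgG receptor, was at 0 in normal and at 0.42, 0 and 7.96 in glioma libraries. These 4 genes were all at 0 in glioma replicate 2. Fcgr2b, an IgG receptor that signals through an inhibitory motif of its own, was instead at 0 in glioma replicate 1 and at 5.97 and 8.63 in glioma replicates 2 and 3. Trem2, a lipid-sensing receptor, was at 6.11 in glioma replicate 1, at 3.42 in normal replicate 2 and at 0 in the other 4 libraries, glioma replicate 3 included. Of the 50-base stretches in the last 500 bases of Fcgr2b transcripts, 1.36% also occur in Fcgr3.

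Genes that mark resting microglia were low or at 0. Tmem119, a membrane protein of microglia, was at 0 in normal endothelium and at 5.69, 0 and 6.31 in glioma. P2ry12, the nucleotide receptor of resting microglia, was at 7.53 in glioma replicate 3 and at 0 in the other libraries. It lies within Med12l on the opposite strand, which was at 0 in glioma replicate 3. Siglech was at 0, 2.84 and 0.42 in normal and at 2.62, 3.82 and 0 in glioma libraries, with a limma difference of 1.06 (SE 1.62, adjusted p = 0.899). P2ry6, which promotes phagocytosis, was at 5.69 in glioma replicate 1 alone. The 4 genes summed to 15.4 ppm in glioma replicate 3 and to at most 6.25 in any other library.

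Macrophage surface genes were recorded mainly in glioma replicate 3. Mrc1, the mannose receptor CD206, was at 5.25 in glioma replicate 1, at 9.78 in glioma replicate 3 and at 0 in the other 4 libraries. Ms4a7 was at 0, 0 and 1.94 in normal and at 0, 6.89 and 10.74 in glioma libraries (difference 5.23, SE 2.89, limma adjusted p = 0.875). Ms4a6c had its highest value in normal replicate 1, at 9.20, 3.42 and 0 in normal and at 3.81, 0 and 6.36 in glioma libraries (difference -0.81, SE 3.02, limma adjusted p = 0.965). Without that library the difference was 1.68. Of the 50-base stretches at the end of Ms4a6c transcripts, 6.10% also occur in Ms4a6b, so reads may be split between them. Adgre1, which encodes a common surface marker of mouse macrophages, and Cd163, a haemoglobin scavenger receptor of perivascular macrophages, were listed at 0 in all 6 libraries.

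Genes of tumour-associated and lipid-handling macrophages held the 3 highest levels among the members in glioma replicate 3. Spp1, which encodes osteopontin (chromosome 5, 104435118 to 104441050), was at 0 in normal endothelium and at 6.28, 0 and 12.52 in glioma endothelium. In glioma replicate 3 this was 345 ppm, rank 460 of all genes, and 8.23% of its terminal 50-base stretches also occur in the overlapping annotated gene Gm42793. Arg1, arginase 1 of alternatively activated macrophages, was at 0, 0 and 0.42 in normal and at 3.56, 0 and 12.12 in glioma libraries, rank 642 in glioma replicate 3. Both genes were thus at 0 in glioma replicate 2. Lgals3, galectin 3, was at 0, 5.04 and 2.97 in normal and at 2.22, 0 and 10.51 in glioma, a limma difference of 1.57 (SE 3.09, adjusted p = 0.926) that was -1.56 without glioma replicate 3.

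Apoe, the lipid carrier made by astrocytes, microglia and macrophages (chromosome 7, 19696109 to 19699188), was the highest member in every library. It was at 13.38 ± 0.34 in normal and 14.06 ± 1.17 (SD, n = 3 each) in glioma libraries, with 13.78, 13.22 and 13.15 against 13.89, 12.98 and 15.31. The groups overlapped, and the limma difference was 0.68 (SE 0.63, adjusted p = 0.875), or 0.05 without glioma replicate 3. In that library Apoe ranked 29 of all genes. Astrocyte markers summed to 681, 388 and 406 ppm in normal endothelium and to 908, 205 and 707 in glioma endothelium, and their part in the Apoe level was not tested.

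Phagosome and lysosome genes were largely in glioma replicate 3. Cd68, a lysosomal membrane protein of macrophages, was at 0, 0 and 2.46 in normal and at 6.11, 0 and 9.47 in glioma libraries (difference 4.37, SE 2.67, limma adjusted p = 0.875). Lyz2, lysozyme, was at 10.18 in glioma replicate 3, at 1.81 in normal replicate 3 and at 0 elsewhere, and 16.9% of its terminal 50-base stretches also occur in Lyz1. Mpeg1, a pore-forming protein of macrophages, likewise was at 8.61 in glioma replicate 3, at 2.94 in normal replicate 3 and at 0 elsewhere.

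The subunits of the phagocyte oxidase differed in where they appeared. Cybb, the catalytic subunit gp91phox, was at 0 in normal endothelium and at 8.17, 0 and 9.87 in glioma. Cyba, its partner p22phox that also serves other NADPH oxidases, was at 12.23, 9.60 and 9.76 in normal and at 9.93, 11.06 and 11.47 in glioma libraries. Cyba was therefore high where Cybb was at 0. Its limma difference was 0.29 (SE 0.79, adjusted p = 0.95), which was 1.14 without normal replicate 1 and -0.17 without normal replicate 2. Ncf4, a cytosolic subunit of the oxidase, was at 7.26 in glioma replicate 1 and at 0 elsewhere.

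Genes shared by most leukocytes included those that were highest in glioma replicate 1. Ptprc, which encodes CD45 (chromosome 1, 138062861 to 138175708), was at 0 in normal endothelium and at 7.92, 7.20 and 0 in glioma endothelium. It was thus at 0 in the library with the most other myeloid RNA. Coro1a, an actin regulator of leukocytes, was at 8.08, 4.13 and 0.58 in normal and at 10.00, 0 and 9.06 in glioma, and Plek, pleckstrin, at 0, 2.84 and 0 against 8.06, 0 and 7.63. Cd52 was at 0 in normal endothelium and at 15.1, 0 and 30.04 ppm in glioma. Granulocytes use such genes too, and their markers had 10 of 12 members above 0 in glioma replicate 1, led by S100a9 at 12.84, S100a8 at 10.25 and Ngp at 9.52, and 1 of 12 in glioma replicate 3, where these 3 were at 0. Their part in the levels of glioma replicate 1 was not tested. Coro1a overlaps Bola2 on the opposite strand, which was at 8.42 to 10.03 in the 6 libraries, and Plek overlaps Cnrip1 likewise, at 0 to 8.12. Use of strand in counting is not given in the sources used here, so these 2 are uncertain.

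Aif1 and Cd53 completed the set. Aif1, the microglial protein IBA1, was at 0, 4.90 and 2.66 in normal and at 1.81, 0 and 9.41 in glioma libraries (difference 1.22, SE 2.87, limma adjusted p = 0.941). Without glioma replicate 3 the difference was -1.62. Cd53, a tetraspanin of leukocytes, was at 0 in normal and at 1.42, 0 and 8.01 in glioma libraries.

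**Figure D4:**
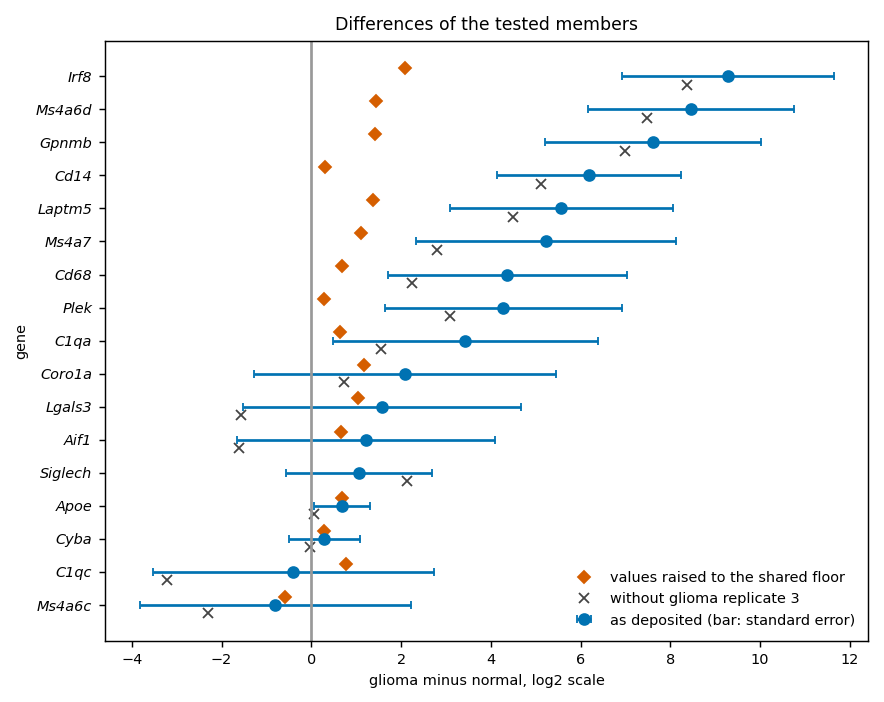
Difference, glioma minus normal on the log2 scale, for the 17 tested members as deposited (circles, bars are standard errors), with every value raised to 7.43 (diamonds) and without glioma replicate 3 (crosses). Irf8 stands at 9.28 as deposited and 2.08 with the raised floor, and Lgals3 and Aif1 lie below 0 without glioma replicate 3.

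Other genes of the same pathways, taken from 6 lists of partners with 56 symbols, gave 36 tested genes, of which 0 passed the limma test in either direction at an adjusted p of 0.05. An unadjusted limma p under 0.05 was reached by 3 that were higher and 0 that were lower, against 2.35% and 1.94% of all genes tested. In glioma 7 were wholly higher and 1 wholly lower, against 6.91% and 6.37% of all genes tested. Of the 3, and of the 7, 1 met the filter through glioma alone. Its direction and lack of overlap were thus fixed by the filter, and nothing is read from these counts. Csf1r, the receptor that microglia need to survive, was at 7.43, 3.92 and 3.32 in normal and at 5.13, 0 and 8.73 in glioma libraries. Its 7.43 in normal replicate 1 was the lowest value above 0 of that library. Cx3cr1, the fractalkine receptor of microglia, was at 9.65, 6.88 and 6.51 in normal and at 5.13, 0 and 9.08 in glioma, so it was above 0 in all normal libraries and highest in normal replicate 1. The groups overlapped for both receptors, and limma gave differences of -0.27 (SE 2.91, adjusted p = 0.991) and -2.94 (SE 2.63, adjusted p = 0.875).

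Some partners repeated the peak in glioma replicate 3. Ctss, the lysosomal protease cathepsin S, was at 0, 4.26 and 4.36 in normal and at 3.37, 6.57 and 14.15 in glioma libraries. Clec7a, the beta-glucan receptor dectin 1, was at 9.63, 0 and 4.21 in normal and at 6.79, 0 and 12.71 in glioma. Itgax, the integrin chain CD11c, was at 9.88 in glioma replicate 3 and at 0 in the other 5 libraries. Itgam, the integrin chain CD11b, did not share the peak, at 7.54, 0 and 1.22 in normal and at 6.75, 0 and 0 in glioma. It was thus at 0 in glioma replicate 3 and highest in normal replicate 1. Ctsd, cathepsin D, which endothelial and many other cells also make, did not share the peak and ranged from 10.53 to 12.06 over the 6 libraries. Over the 6 lists, 25 of 56 genes were highest in glioma replicate 3, against 20.4% of all genes above 0 anywhere.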

How the data were processed

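Each of the 6 libraries, 3 per group by sample title, came as 1 file of log2 values for 24421 gene symbols. Bowtie2, edgeR and the build mm10 are named without role, per the submitters' processing notes, while the sources used here name no counting tool, strand setting or normalization. From the values, the deposited log2 values were read as log2(x + 1) of quantile-normalized data: all libraries share 1 maximum, and 100% of back-transformed values above 0 lie within 0.02 of a multiple of 1 divided by 6. Depth is therefore unknown, and a 0 is given only as listed at 0. The fit used limma 3.58.1 under R 4.3.3, with a mean trend and 4 residual degrees of freedom, over genes reaching a back-transformed 1 in 3 or more libraries. It was tested on simulated data first. Alternatives were a pseudocount of 100, a shared floor of 7.43, no filter, genes above 0 in all 6 libraries, no trend, a replicate block and each library left out. The members, the lists and the genes to name (all 39 members, Csf1r, Cx3cr1 and at most the 3 highest of each other list) were chosen with earlier results of these data known. Itgam and the full list of 8 monocyte markers were named in addition. Positions are from GENCODE M21 on GRCm38, the same assembly as mm10. The marker symbols Trac and Ighm were not matched and are not analysed here.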

Additional observations from a re-analysis of the deposited data

How the results depend on the processing

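Without the mean trend the limma test called 15 genes (0.126% of those tested) and 0 members. Under every other alternative it called 0 genes and 0 members. The smallest adjusted limma p of a member without the trend was 0.0979, for Irf8. Irf8 met the filter only through its 3 glioma values, so nothing is read from that p. The median difference over the tested members was 3.43, and 1.12 with a pseudocount of 100, 0.73 with the shared floor and 0.68 when only genes without a 0 were kept (3 members), since fewer or smaller steps from 0 enter these. Leaving out each library in turn gave medians from 1.73 to 4.72. Of 189 single-member differences under the alternatives, 177 kept their direction and 12, in 5 members, turned. The settings without filter, without trend, with the replicate block and with only genes above 0 in all libraries repeat the main differences by construction. The 4 members that met the filter through glioma alone could not turn either, so nothing is read from the 177. C1qc was 0.66 with the pseudocount of 100 and 0.78 with the shared floor, and ranged from -3.21 to 2.28 with each library left out. The same ranges were -2.92 to 1.68 for Ms4a6c, -1.62 to 3.09 for Aif1, -0.17 to 1.14 for Cyba and -1.56 to 3.70 for Lgals3. The cause was not tested. Genes at an unadjusted p under 0.05 numbered 1204 without normal replicate 1, 320 without normal replicate 2 and 313 without normal replicate 3. Same-numbered libraries correlated at 0.13, 0.03 and 0.06 in their deviations, and differently numbered ones at -0.14 to 0.09. With 3 libraries per group these values cannot tell whether the numbers pair the samples, and the main fit used no pairing. The replicate block gave 0 calls and 610 genes at an unadjusted p under 0.05, against 509 in the main fit. Without depth, no limit of detection in reads can be given.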

Other observations

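Monocyte and dendritic cell genes did not share 1 order over the libraries. Of the 8 monocyte markers, 4 (Ly6c2, Plac8, Chil3 and Ear2) were highest in glioma replicate 3 and the rest (Fn1, Vcan, F13a1 and Ace) in other libraries. Over all genes above 0 anywhere, 20.4% were highest there. Fn1, fibronectin, the highest of the list, was at 16.15, 16.83 and 16.77 in normal endothelium and at 15.65, 17.62 and 17.31 in glioma endothelium. Its level was 3019 ppm or more in every library, and which cells gave it was not tested. Ly6c2, a surface antigen of inflammatory monocytes, was at 9.60, 9.09 and 9.25 in normal endothelium and at 9.50, 11.23 and 12.29 in glioma endothelium (difference 1.69, SE 0.75, limma adjusted p = 0.875). Sequence shared with other genes was searched for the 39 members only, and so not for Ly6c2. Which cells gave its level was not tested. Vcan, the proteoglycan versican, was at 0 in normal endothelium and at 12.70, 9.31 and 0 in glioma endothelium. Dendritic cell markers summed to at most 26.6 ppm, in glioma replicate 2.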
